A study of Oryza sativa with 36 samples.

Results

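Universal stress proteins are small soluble proteins, or domains of larger proteins, that cells make under heat, drought, salt, starvation or lack of oxygen. The genes were taken as all loci whose description in the deposited tables contains the words "universal stress protein", whatever their values. That rule found 27 of the 34623 genes common to all tables, of which 26 are described as domain-containing proteins and 1, LOC_Os12g08060, as a family protein. Of these, 15 passed the filter on low values (at least 1 FPKM in at least 3 libraries) and were tested with the 18585 genes that did so. Levels are in FPKM, a fragment count divided by gene length and by library size, so genes can be compared with each other per length.

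The domain was first described in the bacterium Escherichia coli, and some members of the family bind ATP. In plants it occurs alone in many proteins and is also known joined to kinases or to membrane exchangers of cations and protons. Plant members are known from responses to drought, salt, cold and flooding, and in Arabidopsis the member HRU1 acts with a respiratory burst oxidase, which makes reactive oxygen, when oxygen is low. The deposited gene ontology terms assign "response to stress" to 23 of the 27 genes, "hydrolase activity" to 18, "plasma membrane" to 14, "response to cold" to 6 and "ATP binding" to 3. Only LOC_Os02g47650 carries the term "response to desiccation". By their locus names, 6 of the genes lie on chromosome 1, 6 on chromosome 5, 4 on chromosome 3, 4 on chromosome 12, 3 on chromosome 2, 2 on chromosome 7 and 2 on chromosome 10.

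The libraries are RNA sequencing libraries of rice flag leaves, the last leaf below the panicle, from 3 varieties, the hybrid WFYT025 with WFB and CHT025 as its parents. Each was sampled on day 1 and on day 10 after flowering, once in a crop labelled early rice and once in a crop labelled middle rice. These crops are called the early season and the middle season. Each of the 12 groups holds 3 libraries, 36 in all, and no treatment or transgene is named. No label ties the replicates to separate plants, so the spread between them may be technical. Any handling that went with a crop, and the weather of that crop, cannot be told apart from the season.

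The FPKM sum was 532276 to 567391 per library and 21656 to 23811 genes were above 0. Leaf markers, 21 genes for chlorophyll-binding proteins and the Rubisco small subunit, summed to between 24425 and 82735 FPKM. Grain storage protein genes, 43 glutelins and prolamins that a leaf should lack, summed to 3.11 to 647 FPKM, and 4 of the 43 were listed at 0 in every library. The read depth is unknown because no counts were used, and a 0 in these tables is reported only as listed at 0. Since bulk tissue was sequenced, fewer cells of a type and less RNA per cell cannot be told apart in any of the results.

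Per library, 17 to 24 of the 27 genes were listed above 0 and 9 to 13 reached 1 FPKM. Over all libraries the highest means belonged to LOC_Os05g28740 (147 FPKM), LOC_Os12g36640 (40.2), LOC_Os01g07590 (38.5), LOC_Os05g06500 (22.1) and LOC_Os02g47650 (13.5). LOC_Os07g36600 (12.8), LOC_Os05g42230 (11.8) and LOC_Os01g57450 (9.17) followed, and the remaining 19 genes had means under 2 FPKM. The genes nearest to the filter were LOC_Os02g53320 and LOC_Os01g19820 on the inside, with 3 and 4 libraries at 1 FPKM or more, and LOC_Os05g07810 and LOC_Os01g65440 on the outside, with highest values of 0.88 and 0.68 FPKM. LOC_Os02g53320 passed only through CHT025 on day 1 of the middle season and LOC_Os01g19820 mostly through WFB on day 1 of the early season. LOC_Os01g63010, with 8 libraries at 1 FPKM or more, passed mostly through the middle season, including every WFYT025 library of its day 1. The differences of these genes there, and every count of called genes that includes them, follow in part from the filter. LOC_Os12g31710 was listed at 0 in all 36 libraries.

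**Figure D1:**
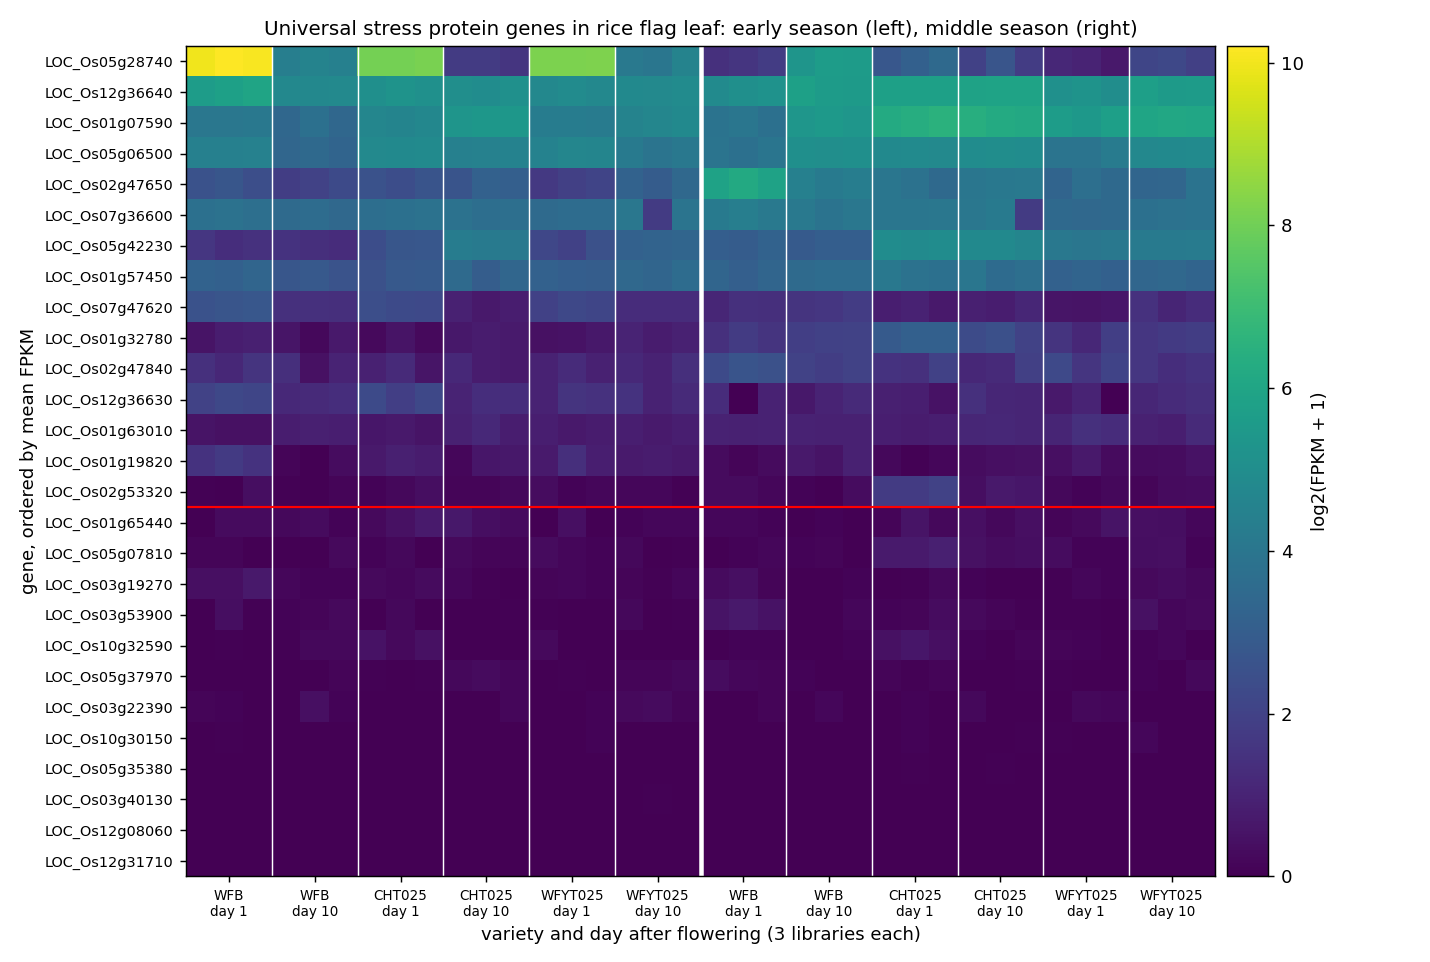
Colour gives log2(FPKM + 1) of the 27 universal stress protein genes (rows, by mean level) in each of the 36 libraries (columns, by group), and the red line separates the 15 tested genes from the 12 that were not tested. The top row, LOC_Os05g28740, covers the widest range, while the rows under the line stay below 1 FPKM in every library.

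LOC_Os05g28740, annotated in the tables with ATP binding, nucleus and vacuole, was the most variable gene of the family and one of the most abundant leaf transcripts in a single condition. On day 1 of the early season its FPKM was 999.8, 1179 and 1109 in the 3 WFB libraries. CHT025 had 266, 269 and 284 FPKM on that day, and WFYT025 had 289, 291 and 297. WFB thus stood above both other varieties without overlap. The parent CHT025 and the hybrid lay closer together, though every hybrid library was above every CHT025 library. Their difference of 0.10 ± 0.17 on the log2 scale (± standard error, adjusted p = 0.688 by limma) did not pass the test. A missing call does not show that they were alike.

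By day 10 of the early season the gene had fallen to 19.5, 22.5 and 20.8 FPKM in WFB and to 16.4, 15.3 and 22.8 in WFYT025. CHT025 had 2.39, 2.46 and 2.0 FPKM. All day 10 libraries of the early season therefore lay more than 10-fold below the lowest day 1 library of that season. The log2 change was -5.64 ± 0.17 in WFB (adjusted p = 9.89e-23), -6.39 ± 0.17 in CHT025 (1.87e-23) and -3.96 ± 0.17 in WFYT025 (1.46e-18). Among all 34623 genes ordered by group mean, on day 1 its rank was 60 (WFB), 218 (CHT025) and 200 (WFYT025).

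In the middle season the same gene was low on day 1. WFB had 1.64, 1.98 and 2.52 FPKM, and CHT025 had 5.75, 7.68 and 10.3. WFYT025 was lowest with 1.21, 1.03 and 0.63 FPKM, at rank 15463. On day 10 WFB had 38.6, 49.1 and 47.5 FPKM, CHT025 had 2.90, 5.41 and 2.48, and WFYT025 had 3.36, 3.63 and 2.86. WFB and WFYT025 were higher on day 10 in every library, and CHT025 was lower in every library. The log2 changes were 3.92 ± 0.17 (adjusted p = 3.31e-18), 1.14 ± 0.17 (1.28e-06) and -0.97 ± 0.17 (2.82e-05) in that order.

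The highest group mean of LOC_Os05g28740, 1096 ± 90.1 FPKM (SD, n = 3) in WFB on day 1 of the early season, was 1145 times the lowest, the 0.957 ± 0.297 of WFYT025 at the first sampling of the middle season. It made up 88.7% to 89.8% of the summed FPKM of the 27 genes in the former libraries and 0.4% to 0.81% in the latter. Without it the sum of the family ran only from 71.7 to 258 FPKM over all 36 libraries. Between the seasons on day 1 the gene was lower in the middle season by log2 -8.50 ± 0.17 in WFB, -4.98 ± 0.17 in CHT025 and -7.24 ± 0.17 in WFYT025 (adjusted p = 1.34e-27, 4.03e-21 and 1.4e-25).

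**Figure D2:**
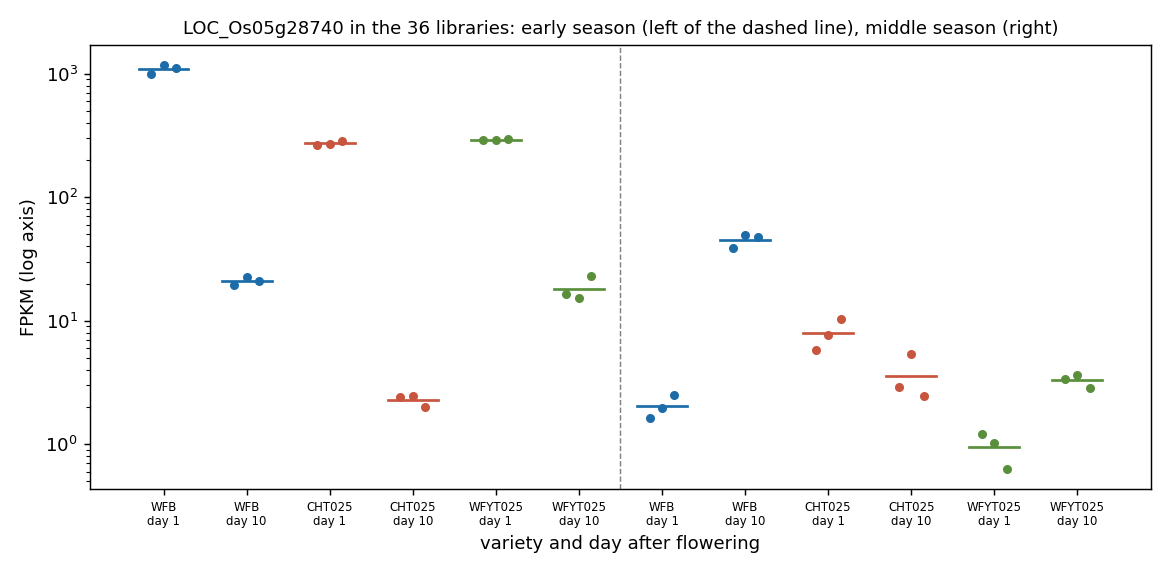
Points are the FPKM of LOC_Os05g28740 in single libraries on a log axis, and short bars are the means of the 3 libraries of each variety, day and season. The 9 libraries of day 1 of the early season sit between 266 and 1179 FPKM, and the highest of the other 27 libraries is at 49.1.

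Other measures differed between the same groups. The clock gene LHY (LOC_Os08g06110), whose transcript peaks around dawn and which was chosen after its values were seen, had its lowest levels on day 1 of the early season. They were 23.7 ± 0.354 FPKM (SD) for WFB, 123 ± 3.14 for CHT025 and 63.2 ± 0.411 for WFYT025. In the other 9 groups its means ran from 385 to 844 FPKM. No hour of sampling is given in the labels. The leaf markers summed to 79720 to 82735 FPKM in WFB on day 1 of the early season and to 29748 to 31827 on day 1 of the middle season. The part of the clock and of the leaf marker level in the change of LOC_Os05g28740 was not tested.

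From day 1 to day 10 of the early season, most called genes fell in WFB, and both directions were seen in the other varieties. In WFB 1 gene rose and 9 fell, where 25% and 46.1% of all tested genes did so (71.1% called in all). CHT025 had 6 genes that rose and 4 that fell (25.1% and 39.9% of all tested genes, 65% in all). WFYT025 had 5 and 3 (33% and 35%, 68% in all). The median log2 change of the 15 genes was -0.53, -0.01 and 0.03, beside -0.15, -0.09 and -0.00 for all tested genes. At least 2-fold changes were seen in 5, 3 and 3 of the genes, against 17.6%, 9.85% and 12.2% of all tested genes. The 5 of WFB include LOC_Os01g19820, which passed the filter mostly through the day 1 libraries of that comparison. After quantile normalization of the libraries, which removes shifts of the whole distribution, the 5 of WFB were 3.

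In WFB of the early season 6 of the 8 genes with the highest means fell, and LOC_Os07g36600 and LOC_Os05g42230 did not pass the test. LOC_Os12g36640, annotated to the plasma membrane, Golgi apparatus and vacuole, was at 48.2, 54.0 and 61.3 FPKM on day 1 and at 25.8, 26.3 and 26.7 on day 10. Every day 10 library lay below every day 1 library, and the log2 change was -1.02 ± 0.08 (adjusted p = 8.49e-13). The same gene did not pass the test in CHT025 (-0.12 ± 0.08, adjusted p = 0.182) or WFYT025 (0.03 ± 0.08, 0.719) of that season.

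LOC_Os05g06500, annotated to the plasma membrane and the response to cold, fell in all 3 varieties of the early season. In WFB it went from 20.8, 20.7 and 21.3 FPKM to 9.33, 10.3 and 8.70, in CHT025 from 26.6, 27.4 and 28.1 to 20.9, 21.4 and 21.8, and in WFYT025 from 22.0, 24.4 and 24.2 to 16.9, 14.3 and 16.2. The days did not overlap in any variety. The log2 changes were -1.07 ± 0.07, -0.35 ± 0.07 and -0.55 ± 0.07 (adjusted p = 7.02e-15, 4.85e-05 and 2.6e-08).

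LOC_Os07g47620 was low in abundance and also fell in all 3. It went from 4.91, 5.48 and 5.82 FPKM to 1.70, 1.68 and 1.59 in WFB, from 4.43, 3.86 and 3.76 to 0.89, 0.60 and 0.74 in CHT025, and from 2.89, 3.58 and 3.42 to 1.48, 1.45 and 1.48 in WFYT025. Again no day 10 library reached a day 1 library of its variety, with log2 changes of -1.27, -1.53 and -0.80 (each ± 0.10; adjusted p = 3e-12, 6.45e-14 and 6.41e-08).

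LOC_Os12g36630, the direct neighbour of LOC_Os12g36640 by locus number, fell in WFB (-0.88 ± 0.24, adjusted p = 0.00153) and CHT025 (-0.91 ± 0.24, 0.00126) and not detectably in WFYT025 (-0.08 ± 0.24, 0.772). It never exceeded 3.9 FPKM in any library and was listed at 0 in 2. Reads could be shared between these neighbours, so its values are uncertain. LOC_Os01g19820 fell in WFB from 1.85, 2.29 and 1.80 FPKM to 0.09, 0 and 0.28, without overlap (log2 -1.41 ± 0.13, adjusted p = 1.07e-10). This gene passed the filter mostly through those day 1 libraries, so its fall follows in part from the filter.

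A second group of genes rose in CHT025 and WFYT025 in the early season. LOC_Os05g42230, one of the genes that hardly varied between days in WFB (2.02, 1.53 and 1.77 FPKM against 1.85, 1.61 and 1.48), went from 4.25, 5.61 and 5.91 FPKM to 18.6, 17.5 and 16.6 in CHT025. In WFYT025 it went from 3.55, 2.93 and 4.72 to 7.99, 8.49 and 9.0 FPKM. The days were separate in these 2 varieties and overlapped in WFB. The log2 changes were 1.58 ± 0.10 in CHT025, 1.02 ± 0.10 in WFYT025 and -0.07 ± 0.10 in WFB (adjusted p = 2.45e-14, 4.01e-10 and 0.579).

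LOC_Os02g47650, the gene with the desiccation term, rose in WFYT025 from 2.20, 2.81 and 3.30 FPKM to 8.34, 6.76 and 9.83 (log2 1.30 ± 0.16, adjusted p = 2.71e-08). It rose less in CHT025, from 4.95, 4.38 and 5.23 to 5.36, 8.01 and 7.58 FPKM (0.43 ± 0.16, 0.0191), and the difference of these changes passed the test (0.87 ± 0.23, 0.00338). In WFB it fell from 4.92, 5.67 and 4.53 to 2.62, 3.08 and 3.85 FPKM (-0.54 ± 0.16, 0.00389). LOC_Os01g07590, annotated to protein folding with chaperones and to responses to cold, heat and oxidative stress, was likewise lower on day 10 in WFB (-0.53 ± 0.08, 2.3e-06) and higher in CHT025 (0.71 ± 0.08, 1.77e-08) and WFYT025 (0.43 ± 0.08, 5.98e-05).

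The difference of the day change between varieties, a comparison added after the data were seen, was tested in the same model. In the early season it was higher in CHT025 than in WFB for 8 genes and lower for 1, against 32.7% and 26.5% of all tested genes (59.1% in all). For WFYT025 against WFB it was higher for 11 and lower for 1, against 34.9% and 22.2% of all tested genes (57% in all). Both of these higher counts include LOC_Os01g19820. It passed the filter mostly through WFB on day 1 of this season, so these counts follow in part from the filter. WFYT025 and CHT025 differed in 5 genes, 3 higher and 2 lower (20.7% and 12% of all tested genes, 32.7% in all). After quantile normalization that last split was 3 higher and 4 lower.

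In WFB of the middle season 8 genes rose and 2 fell by day 10, which is 53.3% and 13.3% of the 15 and near the 46% and 20.6% of all tested genes (66.6% in all). After quantile normalization 5 rose and 3 fell. CHT025 had 1 gene that rose and 3 that fell (23.1% and 20.5% of all tested genes, 43.6% in all). WFYT025 had 6 and 1 (47.7% and 16.6%, 64.3% in all), or 5 and 2 after quantile normalization. The medians of the 15 genes were 0.33, -0.10 and 0.21, beside 0.16, 0.01 and 0.18 for all tested genes, and 4, 1 and 1 of the genes changed at least 2-fold, against 9.6%, 3.84% and 9.56% of all tested genes. The single gene of CHT025 was LOC_Os02g53320, which passed the filter through the day 1 libraries of that comparison, so its count is not read against the background. With a pseudocount of 0.1 the last pair of counts was 3 and 3, and after quantile normalization that of WFYT025 was 0. The count of CHT025 was 2 without its day 1 replicate 1 and 3 without its day 10 replicate 2. When only the libraries of the compared groups were fitted, the 4 calls of CHT025 became 7, with 4 higher and 3 lower.

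LOC_Os01g07590 rose in WFB of the middle season from 13.7, 14.9 and 12.6 FPKM to 40.2, 43.4 and 40.2 (log2 1.52 ± 0.08, adjusted p = 1.01e-15). In WFYT025 it rose from 48.5, 42.9 and 52.8 to 63.6, 68.7 and 65.5 FPKM (0.45 ± 0.08, 3.18e-05). CHT025 had 73.6, 81.3 and 90.2 FPKM on day 1 and 82.4, 74.5 and 71.0 on day 10, where the days overlapped (-0.10 ± 0.08, 0.362). CHT025 was thus the highest of the 3 varieties on both days.

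LOC_Os05g06500 rose in WFB from 14.2, 12.8 and 14.4 FPKM to 33.2, 31.7 and 32.7 (log2 1.18 ± 0.07, adjusted p = 1.55e-15) and in WFYT025 from 14.3, 14.1 and 17.8 to 25.9, 27.4 and 28.7 (0.80 ± 0.07, 1.24e-11). In CHT025 it stayed between 27.2 and 30.8 FPKM in all 6 libraries (0.12 ± 0.07, 0.156). LOC_Os12g36640 had the same order of changes, from 28.7, 32.8 and 36.2 to 54.6, 47.3 and 45.7 FPKM in WFB (0.58 ± 0.08, 1.46e-07) and from 33.9, 36.5 and 31.4 to 53.0, 46.3 and 47.9 in WFYT025 (0.52 ± 0.08, 1.16e-06). CHT025 had 54.7 to 60.3 FPKM of it on both days (0.11 ± 0.08, 0.264). For both genes every CHT025 library of day 1 lay above the day 1 libraries of the other varieties.

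LOC_Os02g47650 went the other way in WFB. It was at 58.2, 72.9 and 57.1 FPKM on day 1, the highest values of this gene anywhere, and at 20.7, 16.8 and 18.9 on day 10 (log2 -1.68 ± 0.16, adjusted p = 1.82e-10). No library of the other 10 groups exceeded 16.2 FPKM. The grain storage genes were also highest in these WFB day 1 libraries, at 480 to 647 FPKM in sum against 3.16 to 296 on day 10. Of the 28 tested ones 15 fell, where 20.6% of all tested genes did. Their sum was uneven between replicates of other groups, as in WFB on day 10 of the early season (12.9, 14.1 and 414 FPKM). The part of the grain storage genes in the result for LOC_Os02g47650 was not tested.

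In CHT025 LOC_Os02g53320 and LOC_Os01g32780 also fell in the middle season, besides LOC_Os05g28740. The second gene that fell in WFB was LOC_Os02g47840 (log2 -0.53 ± 0.21, adjusted p = 0.027), and the gene that fell in WFYT025 was LOC_Os01g63010 (-0.25 ± 0.09, 0.014). LOC_Os01g63010 passed the filter in part through the day 1 libraries of that comparison. LOC_Os02g53320 had 2.39, 2.41 and 3.07 FPKM on day 1 and 0.31, 0.60 and 0.53 on day 10 (log2 -1.29 ± 0.10, adjusted p = 9.98e-12), and no other library exceeded 0.30. LOC_Os01g32780 went from 6.38, 7.75 and 7.78 FPKM to 4.06, 4.58 and 3.04 (-0.77 ± 0.15, 7.51e-05). In these CHT025 day 1 libraries the grain storage genes summed to 238 to 383 FPKM, against 98.6 to 299 on day 10. None of the 28 tested ones passed the test between the days, where 43.6% of all tested genes did. LOC_Os07g47620 rose in WFB (0.35 ± 0.10, 0.00343) and WFYT025 (0.70 ± 0.10, 7.94e-07) and did not pass in CHT025 (0.09 ± 0.10, 0.506).

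**Figure D3:**
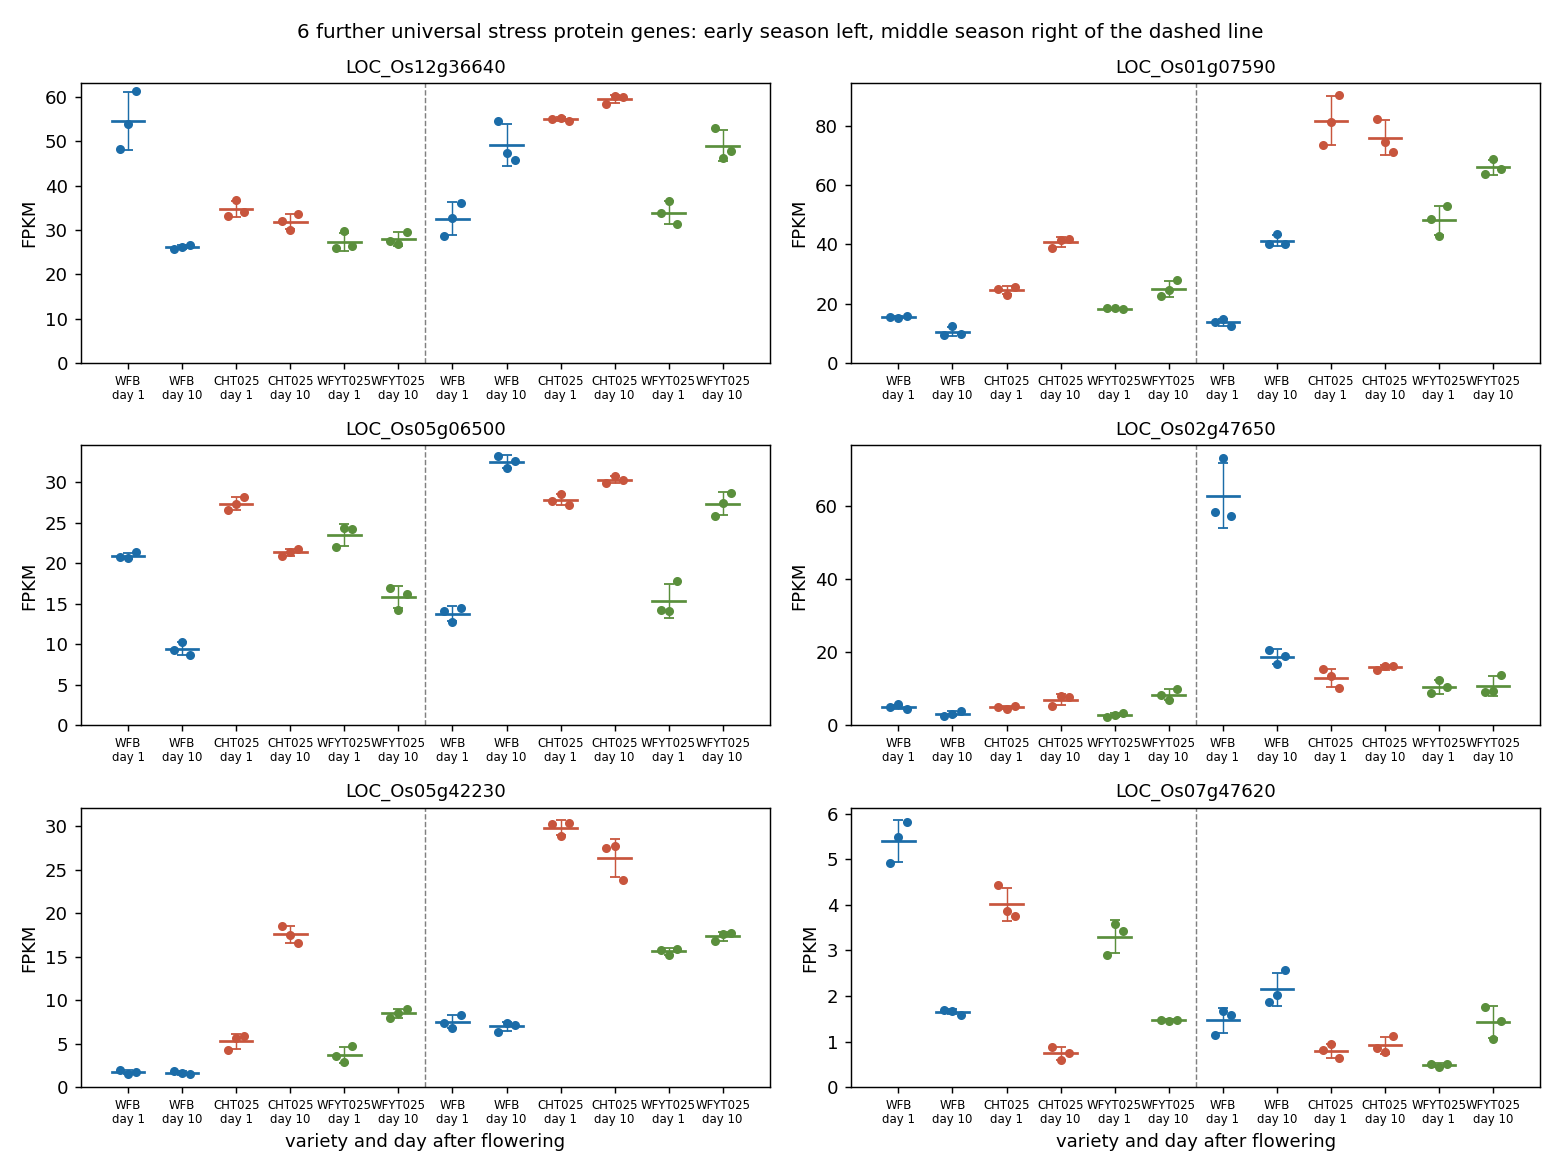
Each panel gives FPKM (linear axis) of a universal stress protein gene in the 12 groups, with points for libraries, a line at the mean and bars for the SD (n = 3). LOC_Os02g47650 peaks in WFB on day 1 of the middle season at 57.1 to 72.9 FPKM, and LOC_Os05g42230 is higher in CHT025 than in WFB in every group of the same day and season.

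No gene of the family was called in the same direction in all 6 comparisons of day 10 with day 1, which 1.1% of all tested genes were upward and 0.43% downward, and the count by limma was also 0 at an unadjusted p under 0.05. Opposite called changes in the 2 seasons of WFB, with a called season difference, were found for 7 of the 15 genes, against 37.6% of all tested genes. They were LOC_Os05g28740, LOC_Os05g06500, LOC_Os01g07590, LOC_Os01g19820, LOC_Os07g47620, LOC_Os12g36640 and LOC_Os01g57450, and each fell in the early season and rose in the middle season. The early fall of LOC_Os01g19820 follows in part from the filter, which it passed mostly through WFB on day 1 of that season. In WFYT025 3 genes did so (27.2% of all tested genes), LOC_Os05g28740, LOC_Os05g06500 and LOC_Os07g47620. In CHT025 it was LOC_Os01g32780 alone (13.1%), which rose in the early and fell in the middle season. This gene passed the filter through the middle season, so its fall there follows in part from the filter.

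The season difference of the day change, middle minus early, was called for 11 genes in WFB, 9 higher and 2 lower, against 53.5% and 23.9% of all tested genes (77.3% in all). CHT025 had 10 such genes, 5 higher and 5 lower (36.1% and 21%, 57.1% in all), and WFYT025 had 8, 5 higher and 3 lower (47.4% and 22.6%, 70% in all). The WFB count includes LOC_Os01g19820 and that of CHT025 includes LOC_Os02g53320, so both follow in part from the filter. Quantile normalization turned the WFB split to 7 and 3 and that of WFYT025 to 3 and 5. It was largest for LOC_Os05g28740, with log2 9.56 ± 0.24 in WFB (adjusted p = 1.25e-24), 5.41 ± 0.24 in CHT025 (1e-17) and 5.10 ± 0.24 in WFYT025 (1.46e-17). LOC_Os05g42230 had a negative difference in CHT025 (-1.75 ± 0.14, 1.02e-11) and WFYT025 (-0.88 ± 0.14, 3.7e-06), where it had risen in the early season. Between the varieties in the middle season, the day change was higher in CHT025 than in WFB for 1 gene and lower for 7 (17.9% and 38.8% of all tested genes, 56.6% in all; 2 and 6 after quantile normalization). The 7 include LOC_Os02g53320. It passed the filter only through CHT025 on day 1 of that season, so this count follows in part from the filter.

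The day change of the middle season was higher in WFYT025 than in WFB for 2 genes and lower for 4 (26.5% and 24.1% of all tested genes, 50.6% in all). It was higher in WFYT025 than in CHT025 for 7 and lower for 1 (39.8% and 12.7%, 52.5% in all; 6 and 2 after quantile normalization). LOC_Os02g53320 is again among the 7, so this count also follows in part from the filter. LOC_Os02g47650 was the gene with the largest positive differences from WFB, at log2 1.97 ± 0.23 for CHT025 (adjusted p = 1.61e-08) and 1.71 ± 0.23 for WFYT025 (1.98e-07).

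**Figure D4:**
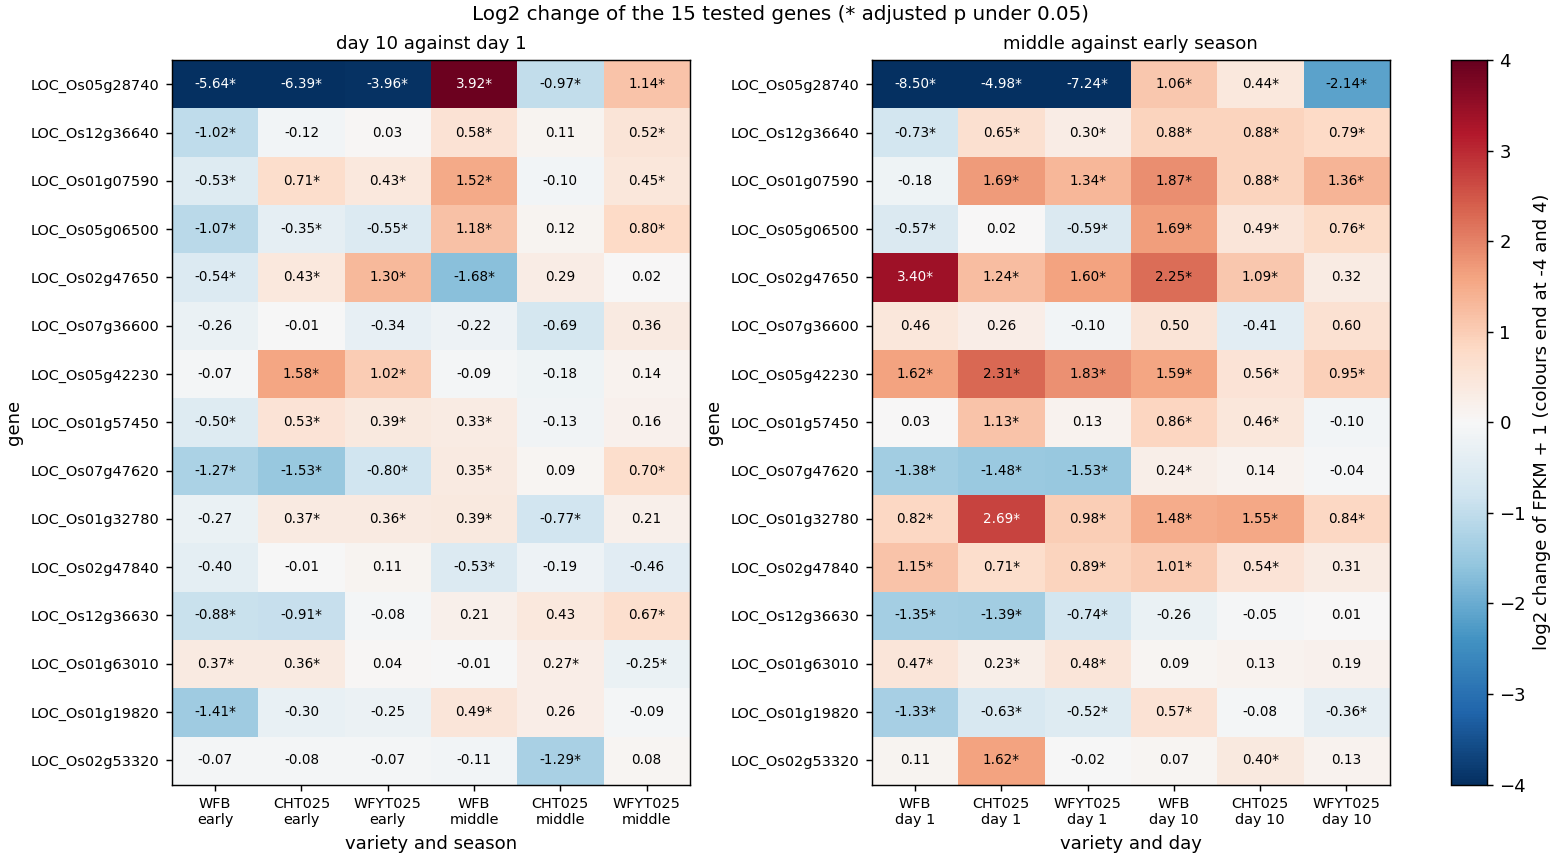
Colour and number give the log2 change of FPKM + 1 of the 15 tested genes, on the left from day 1 to day 10 and on the right from the early to the middle season, and a star marks an adjusted p under 0.05. In the WFB early column 9 of the 10 starred values are negative, and in the WFB day 10 season column all 11 are positive.

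Between seasons on day 10, all called genes of the family were higher in the middle season in WFB and CHT025, and both directions were seen in WFYT025. In WFB 11 were higher and none lower, where 47.7% and 20.2% of all tested genes were (67.8% in all), and in CHT025 10 were higher and none lower (48.3% and 15.9%, 64.2% in all). In WFYT025 5 were higher and 2 lower (38.6% and 25.2%, 63.9% in all). After quantile normalization the splits of WFB, CHT025 and WFYT025 were 10 and 0, 7 and 0, and 5 and 3. At least 2-fold differences were seen in 7, 2 and 2 of the genes, against 11.6%, 6.58% and 10.4% of all tested genes. Quantile normalization, or leaving out CHT025 replicate 1 of day 10 of the early season, brought the count of CHT025 to 1, and a pseudocount of 0.1 brought that of WFYT025 to 4. The medians of the 15 genes were 0.88, 0.46 and 0.32, beside 0.18, 0.19 and 0.08 for all tested genes, and quantile normalization brought the latter to -0.03, -0.00 and -0.06.

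On day 1 the family was split. In WFB 5 were higher and 6 lower in the middle season (33.2% and 45.2% of all tested genes, 78.3% in all), in CHT025 9 and 4 (40.5% and 31.5%, 71.9% in all) and in WFYT025 7 and 5 (30.1% and 44.1%, 74.2% in all). At least 2-fold differences were seen in 7, 9 and 5 of the genes, against 27.4%, 16.1% and 22% of all tested genes, and the 5 of WFYT025 were 9 with a pseudocount of 0.1. The 7 of WFB include LOC_Os01g19820 and the 9 of CHT025 include LOC_Os02g53320. Each passed the filter only or mostly through a group of that comparison, so these counts follow in part from the filter. Besides LOC_Os05g28740, the genes lower on day 1 in all 3 varieties were LOC_Os07g47620 (log2 -1.38, -1.48 and -1.53, each ± 0.10), LOC_Os12g36630 (-1.35, -1.39 and -0.74, each ± 0.24) and LOC_Os01g19820 (-1.33, -0.63 and -0.52, each ± 0.13). All of these passed the test, but the WFB difference of LOC_Os01g19820 follows in part from the filter.

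LOC_Os05g42230 and LOC_Os01g32780 were higher in the middle season in all 6 comparisons, which 7.43% of all tested genes were. LOC_Os05g42230 went on day 1 from 1.53 to 2.02 FPKM to 6.84 to 8.35 in WFB, from 4.25 to 5.91 to 28.8 to 30.3 in CHT025 and from 2.93 to 4.72 to 15.2 to 15.9 in WFYT025. Its seasons never overlapped on either day, and the log2 differences ran from 0.56 ± 0.10 (CHT025 on day 10, adjusted p = 2.4e-05) to 2.31 ± 0.10 (CHT025 on day 1, 1.56e-18). LOC_Os01g32780 was at most 1.01 FPKM in all early libraries and between 1.22 and 7.78 in all middle libraries, with log2 differences of 0.82 to 2.69, each ± 0.15. It passed the filter through the middle season. Its season differences, and its place in the season counts, therefore follow in part from the filter and are not read against the shares of all tested genes. The same holds for LOC_Os01g63010, which passed the filter mostly through the middle season.

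LOC_Os02g47650 was higher in the middle season by log2 3.40 ± 0.16 in WFB on day 1 (adjusted p = 3.55e-18) and by 2.25 ± 0.16 on day 10 (2.63e-13). The difference was 1.24 ± 0.16 and 1.09 ± 0.16 in CHT025, and 1.60 ± 0.16 and 0.32 ± 0.16 in WFYT025, where day 10 did not pass (0.0804). LOC_Os01g07590 was higher by 0.88 to 1.87 in 5 comparisons and did not pass in WFB on day 1 (-0.18 ± 0.08, 0.057). LOC_Os02g47840 was higher in 5 of the 6, by 0.54 to 1.15, with 0.31 ± 0.21 in WFYT025 on day 10 (0.197).

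LOC_Os07g36600 did not pass in any comparison of days or seasons, and it is singled out here after its values were seen. It lay between 9.88 and 19.8 FPKM in 34 libraries and at 2.38 and 2.40 in a single library each of WFYT025 on day 10 of the early season and CHT025 on day 10 of the middle season. With those libraries in the shared estimate of spread its standard error was 0.41 in every such comparison, the widest of the 15 genes, so a missing call does not show that it did not differ. Some groups did not overlap. In WFB it was at 12.35 to 13.45 FPKM on day 1 of the early season and 16.61 to 19.8 in the middle season, and at 9.94 to 11.23 and 13.91 to 16.68 on day 10 (log2 0.46 ± 0.41 and 0.50 ± 0.41, adjusted p = 0.308 and 0.281). In WFYT025 of the middle season it was at 9.88 to 10.3 FPKM on day 1 and 12.56 to 13.97 on day 10 (0.36 ± 0.41, 0.45).

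Between the parents, CHT025 against WFB, 9 genes were called on day 1 of the early season, 3 higher and 6 lower, against 31.4% and 28% of all tested genes (59.3% in all). Of the 9 called on day 10, 7 were higher and 2 lower (37.5% and 26.8%, 64.3% in all). In the middle season 11 were called on day 1, 8 higher and 3 lower (52.5% and 22.8%, 75.3% in all), and 8 on day 10, 4 higher and 4 lower (33.9% and 23.4%, 57.3% in all). LOC_Os05g42230 and LOC_Os01g07590 were higher in CHT025 in all 4 conditions. For LOC_Os05g42230 the log2 differences were 1.17, 2.81, 1.86 and 1.77 (each ± 0.10), in the order day 1 and day 10 of the early and then of the middle season. For LOC_Os01g07590 they were 0.62, 1.85, 2.49 and 0.86 (each ± 0.08).

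LOC_Os07g47620 was lower in CHT025 in all 4 conditions, by log2 -0.35, -0.61, -0.45 and -0.71 (each ± 0.10). LOC_Os05g28740 was lower in 3 (-2.0, -2.74 and -3.37, each ± 0.17) and higher on day 1 of the middle season (1.53 ± 0.17, adjusted p = 4.31e-09), when WFB had 1.64 to 2.52 FPKM. LOC_Os02g47650 was lower in CHT025 on that day (-2.20 ± 0.16, 3.2e-13) and higher on day 10 of the early season (0.93 ± 0.16, 9.48e-06). LOC_Os02g53320 was above WFB on day 1 of the middle season by 1.60 ± 0.10 (1.42e-14), the group through which it passed the filter.

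The hybrid was also set against the mid-parent, the average of its parents' log2 levels. On day 1 of the early season 1 gene was above and 5 below it, against 16.5% and 23.3% of all tested genes (39.8% in all), and on day 10 6 were above and none below (26.6% and 14.8%, 41.4% in all). On day 1 of the middle season 3 were above and 8 below (14.6% and 49.9%, 64.5% in all), and on day 10 2 above and 5 below (20.7% and 34%, 54.7% in all). After quantile normalization these splits became 2 and 5, 6 and 1, 4 and 5, and 1 and 5. The median of all tested genes was -0.18 on day 1 of the middle season and 0.03 after quantile normalization.

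LOC_Os05g28740 departed from the mid-parent in all 4 conditions, by log2 -0.90, 1.15, -1.40 and -1.74 (each ± 0.15) in the order given for the parents (adjusted p = 1.24e-05, 2.58e-07, 2.22e-09 and 3.4e-11). LOC_Os02g47650 did so as well, by -0.66, 0.69, -1.38 and -0.66 (each ± 0.14; 0.000269, 0.000181, 7.32e-10 and 0.000201). Both were thus above the mid-parent on day 10 of the early season and below it in the other 3 conditions. LOC_Os05g42230 lay between its parents in all 4 conditions, higher than WFB by 0.76 to 1.84 and lower than CHT025 by 0.41 to 0.97, each called.

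Genes that differed from each parent the same way lay outside both. In the early season 3 were lower and none higher than both on day 1, against 8.16% and 4.07% of all tested genes (12.2% in all). On day 10 of that season limma gave none, and none at an unadjusted p under 0.05, against 6.52% higher and 3.47% lower of all tested genes (9.99% in all). In the middle season 1 was higher and 2 lower on day 1 (5.7% and 23.6%, 29.3% in all), and on day 10 1 was lower and none higher (15.8% and 10.8%, 26.7% in all). That last count was 2 without WFYT025 replicate 3 of the same day and season. After quantile normalization the early day 1 group held 1 higher and 3 lower genes and the middle day 1 group 1 and 1. The genes below both parents on day 1 of the early season were LOC_Os02g47650, LOC_Os12g36640 and LOC_Os12g36630. LOC_Os12g36640 had 25.9, 29.7 and 26.5 FPKM in the hybrid, against 48.2 to 61.3 in WFB and 33.2 to 36.8 in CHT025, with no overlap (log2 -0.97 ± 0.08 and -0.33 ± 0.08, adjusted p = 9.29e-12 and 0.000781).

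On day 1 of the middle season LOC_Os05g28740 (log2 -0.64 ± 0.17 and -2.17 ± 0.17 against WFB and CHT025) and LOC_Os07g47620 (-0.72 ± 0.10 and -0.27 ± 0.10) were below both parents. LOC_Os01g63010 was above both, at 1.10, 1.65 and 1.46 FPKM against 0.89 to 0.97 in WFB and 0.72 to 0.82 in CHT025 (0.30 ± 0.09 and 0.42 ± 0.09, adjusted p = 0.00394 and 0.000107). It passed the filter in part through these hybrid libraries, so its place above both parents follows in part from the filter. On day 10 of that season LOC_Os02g47650 was below both, at 8.99, 9.43 and 13.7 FPKM against 16.8 to 20.7 in WFB and 14.99 to 16.2 in CHT025 (-0.77 ± 0.16 and -0.54 ± 0.16, 0.000142 and 0.005). Among the 15 tested genes it alone was outside both parents in 2 conditions.

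**Figure D5:**
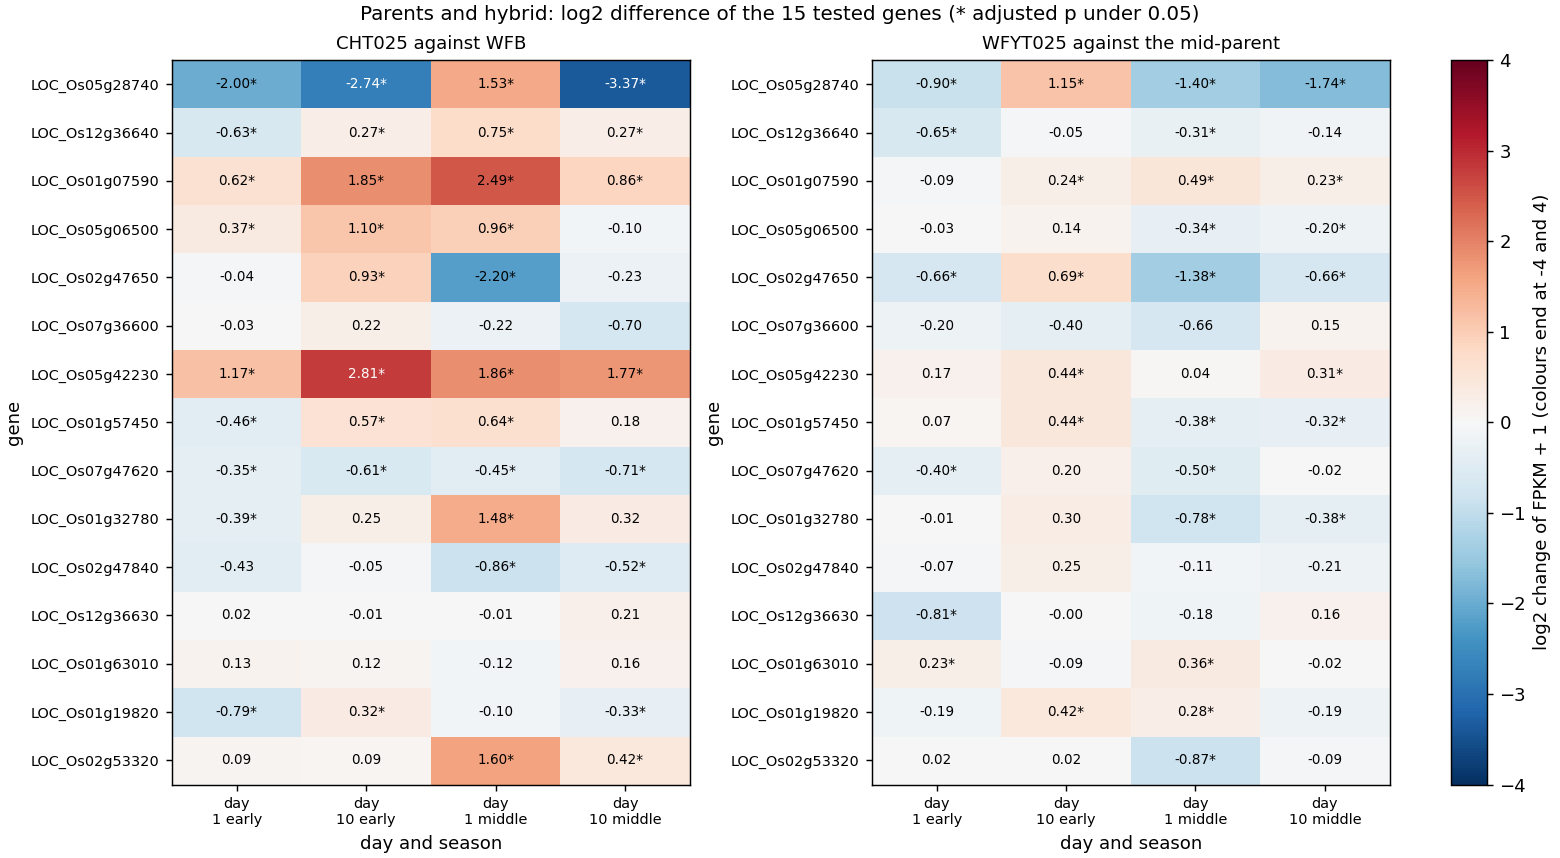
Colour and number give the log2 difference of FPKM + 1 of the 15 tested genes, on the left for CHT025 against WFB and on the right for WFYT025 against the mid-parent, in the 4 combinations of day and season, and a star marks an adjusted p under 0.05. LOC_Os05g42230 and LOC_Os01g07590 are positive in the left panel throughout, and LOC_Os05g28740 has the lowest value of it, -3.37.

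Lists of genes on topics from the background of the family were counted in the same comparisons. Whether they act with these rice genes was not tested. Of 14 genes listed for low oxygen and fermentation, by locus or by description (alcohol dehydrogenase, pyruvate decarboxylase or non-symbiotic hemoglobin), 5 were tested. The tested genes listed by locus were ADH1 and the pyruvate decarboxylase LOC_Os03g18220. The others, LOC_Os05g42110, LOC_Os09g28570 and LOC_Os09g32570, matched only the words "alcohol dehydrogenase", and no hemoglobin was tested. The counts are therefore not read as a measure of low oxygen or fermentation. None rose and 4 fell by day 10 in WFB of the early season, where 25% and 46.1% of all tested genes did. The median log2 change was -1.05 (all tested genes, -0.15). Among those that fell, ADH1 (LOC_Os11g10480), which makes ethanol in fermentation, had 4.07 to 4.65 FPKM on day 1 and 1.31 to 1.60 on day 10 (log2 -1.15 ± 0.09, adjusted p = 4.39e-13). In CHT025 and WFYT025 of that season 2 rose and 1 fell, where 25.1% and 39.9% of all tested genes did in CHT025 and 33% and 35% in WFYT025, and ADH1 rose by 0.61 ± 0.09 in each. By day 10 of the middle season 2 rose and none fell in WFB (46% and 20.6% of all tested genes). CHT025 had 1 that rose and 2 that fell (23.1% and 20.5%), and WFYT025 had 4 and none (47.7% and 16.6%).

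Of 7 respiratory burst oxidase genes 5 were tested. By day 10 of the early season WFB had 1 that rose and 2 that fell (25% and 46.1% of all tested genes), CHT025 had 2 and 2 (25.1% and 39.9%), and WFYT025 had 3 and 1 (33% and 35%). These counts were 4 and 1 (46% and 20.6%), 4 and 1 (23.1% and 20.5%), and 3 and 2 (47.7% and 16.6%) in the middle season. LOC_Os01g25820, an oxidase gene chosen after its values were seen, changed in WFB by log2 -1.85 ± 0.07 in the early and 1.54 ± 0.07 in the middle season (adjusted p = 6.64e-21 and 2.21e-18), the signs that LOC_Os05g28740 had there. In the other varieties the signs of these genes were the same in the early season and differed in the middle season. In CHT025 the oxidase gene changed by -0.71 and 0.19, where LOC_Os05g28740 fell in both seasons, and in WFYT025 by -0.29 and -0.39, where LOC_Os05g28740 fell and then rose (each ± 0.07 for the oxidase gene). Of 12 cation and proton exchanger genes 7 were tested, and the day counts are given for WFB, CHT025 and WFYT025 in turn. They were 4 up and 1 down (25% and 46.1% of all tested genes), 2 and 1 (25.1% and 39.9%), and 3 and 0 (33% and 35%) in the early season. The middle season had 4 and 1 (46% and 20.6%), 2 and 1 (23.1% and 20.5%), and 4 and 2 (47.7% and 16.6%). No kinase gene with a U-box, another kind of protein that can carry the domain, was found by description. Whether any of the exchangers carries the universal stress protein domain is not stated in the tables.

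The authors' deposited table marks as significant, for higher on day 1 and higher on day 10 of the 27 genes, 6 and 1 for WFB, 3 and 1 for CHT025 and 2 and 2 for WFYT025 when grown as early rice. For the middle season the authors' deposited table marks 1 and 3, 2 and 0, and 0 and 2. The share of all genes so marked was not counted, so whether these numbers are many or few for the family is not known. LOC_Os05g28740 is the gene marked in all 6 of these comparisons, with log2 ratios of day 1 over day 10 in the authors' deposited table of 5.71, 6.90 and 4.01 in the early season and -4.46, 1.14 and -1.78 in the middle season.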

How the data were processed

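Flag-leaf RNA of 36 libraries in 12 groups was measured. Per the labels' protocols, mRNA from Trizol extracts was broken up, copied to cDNA and read from both ends. The authors deposited 6 tables, one for each variety and season, with FPKM per library per the file headers, and with their log2 ratio, p-value and q-value. The submitters' processing notes name the tools HISAT, StringTie and edgeR; the genome build is not given in the sources used here. In the early-season table of WFYT025, 1 broken line and 7534 recurring lines were dropped. Genes in all tables, 34623, were kept. Since the seasons and varieties are in separate tables, levels set across tables rest on the FPKM scaling within each library.

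A gene needed 1 FPKM or more in 3 or more libraries, which 18585 reached. For these, limma 3.58.1 under R 4.3.3 fitted log2(FPKM + 1) to the 12 group means with an intensity trend. Tests were two-sided, with Benjamini-Hochberg adjustment over all tested genes and a call at an adjusted p under 0.05. Every adjusted p in the text comes from this fit, and each ± after a log2 value is its standard error. Fold changes on this scale understate changes of low genes. With 24 residual degrees of freedom and a median residual SD of 0.106 on the log2 scale, small changes were called. The fit was tested on simulated data.

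The members, the lists beside them and the tests were chosen with earlier results of these data known. Named are the 5 most abundant genes, up to 5 called genes in each direction that changed at least 2-fold per comparison, genes called alike in all 6 comparisons of days or seasons, genes with opposite day changes, genes outside both parents, neighbours by locus number and genes near the filter. The exceptions are marked as chosen later. Alternatives were a pseudocount of 0.1, no filter, quantile normalization, a replicate block, no intensity trend, the compared groups alone and leaving out each library. Python 3.11.15 with pandas 2.3.3 read the tables and matplotlib 3.10.9 drew the figures.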

Additional observations from a re-analysis of the deposited data

Results flagged for a closer look

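The change from day 1 to day 10 differed between the seasons with opposite called directions, tested as an interaction in limma, for 11 combinations of gene and variety. Of all tested genes 37.6% met this rule in WFB, 27.2% in WFYT025 and 13.1% in CHT025. In WFB the log2 season difference (middle minus early) was 9.56 for LOC_Os05g28740, 2.25 for LOC_Os05g06500, 2.05 for LOC_Os01g07590, 1.90 for LOC_Os01g19820, 1.62 for LOC_Os07g47620, 1.60 for LOC_Os12g36640 and 0.83 for LOC_Os01g57450. In WFYT025 it was 5.10 for LOC_Os05g28740, 1.49 for LOC_Os07g47620 and 1.34 for LOC_Os05g06500. In CHT025 it was -1.14 for LOC_Os01g32780. LOC_Os01g19820 passed the filter mostly through WFB on day 1 of the early season and LOC_Os01g32780 through the middle season. The differences of these genes follow in part from the filter.

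The day change also differed between varieties with opposite called directions for 10 combinations. The share of all tested genes that met this rule was not counted, so the number is not read as a result about the family. In the early season CHT025 exceeded WFB by log2 1.24 for LOC_Os01g07590, 1.03 for LOC_Os01g57450 and 0.97 for LOC_Os02g47650. WFYT025 exceeded WFB by 0.95, 0.89 and 1.84 for the same genes in that order. In the middle season CHT025 minus WFB was -1.16 for LOC_Os01g32780 and -4.90 for LOC_Os05g28740, and WFYT025 minus CHT025 was -0.53 for LOC_Os01g63010 and 2.11 for LOC_Os05g28740. LOC_Os01g32780 and LOC_Os01g63010 passed the filter mostly through this season, so their differences follow in part from the filter.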

How the results depend on the processing

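The 118 combinations of gene and comparison followed here were those called and at least 2-fold in the main fit, so a reversal was unlikely from the start. No alternative reversed a direction among them. Named changes under 2-fold were not in this set. The season difference of LOC_Os12g36630 lost its call in WFB after quantile normalization (0.75 against 1.09) and in CHT025 with a pseudocount of 0.1 (2.11 against 1.34). Among all 15 genes, LOC_Os07g47620 in WFB on day 10, higher in the middle season by log2 0.24, was at -0.05 and no longer called after quantile normalization. That normalization moved the change of all tested genes by a median of up to -0.283 in the day and season comparisons.

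Counts of called genes moved by more than 1.5 times in 2 comparisons. That for CHT025 from day 1 to day 10 of the middle season went from 4 to 7 when only the compared groups were fitted, and ranged from 4 to 5 with single libraries left out. That for genes outside both parents on day 10 of the middle season went from 1 to 2 without the filter and to 3 with the compared groups alone, and ranged from 1 to 2 with single libraries left out. The cause was not tested. Counts of at least 2-fold genes moved more: in addition to those given with the results, a pseudocount of 0.1 raised them between the parents from 2 to 4 and from 4 to 7 on day 1 and day 10 of the early season and from 2 to 4 on day 10 of the middle season.

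The replicate numbers did not pair the libraries: in 0 of 16 comparisons were all 3 correlations of same-numbered libraries over 0.1 (range -0.251 to 0.352), and in 1 of them did every library correlate best with its own number. A replicate block moved the called counts by 1 gene at most, from 7 to 8 for WFYT025 from day 1 to day 10 of the middle season from 8 to 7 for its season difference, and for the variety differences from 12 to 11 (WFYT025 against WFB, early), 5 to 4 (WFYT025 against CHT025, early) and 6 to 5 (WFYT025 against WFB, middle). The unknown read depth leaves the counting error of low genes unmeasured.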
